A study of Apis mellifera ligustica with 12 samples.

Results

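The longer end variants described here are 36 entries of the miRNA list of honeybee (Apis mellifera ligustica) brain small RNA libraries. An entry named with the suffix -x (5p arm) or -y (3p arm) is a miRNA that the authors recognised from other species. A variant is such an entry whose sequence holds the whole sequence of an annotated honeybee miRNA, here called its parent, and is longer. The list has 1350 entries, of which 908 end in -x or -y and 69 meet the sequence rule. The 36 were selected on their counts, with at least 100 summed over the libraries, so that their abundance is a description and not a finding. A further 28 had counts below that minimum and 1 had 0 counts. The rule also sets aside 9 named entries, among them entries that the study called differentially expressed, and 5 of these 9 are themselves longer than a honeybee miRNA. Just inside the minimum were miR-6012-y (157 counts), miR-33-x (155 counts) and miR-989-y (124 counts), and just outside it were miR-2765-x (86 counts), miR-278-y (84 counts) and miR-3782-x (56 counts).

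The 12 libraries, 3 for each group, were made from the brains of foraging worker bees, with 20 brains of a colony pooled for a library and the royal jelly glands removed. The groups were untreated bees (CK) and bees 10, 20 and 30 days (D10, D20 and D30) after hive strips of fluvalinate, a pyrethroid used against mites, were first given. The paper also had a set of control colonies, and it does not say whether CK came from them or from the sampling before treatment. CK was taken here as the sampling before treatment began, so an effect of treatment cannot be told apart from one of the sampling date. If CK came from control colonies, CK and the treated groups also differ in colony. The sources do not say whether equal replicate numbers are the same colony. The libraries held 8454313 to 15979901 counts on listed miRNAs. The neuronal miRNA ame-miR-124-3p was at 12933 to 31131 deposited TPM (counts scaled to a common library total) and ame-miR-137-3p at 3251 to 5659 TPM. Another neuronal marker, ame-miR-1000-5p, was far lower, at 11.96 to 40.9 TPM, and below the muscle markers given next. Markers of muscle were present as well, with ame-miR-1-3p at 872 to 2138 TPM and ame-miR-133-3p at 1881 to 3745 TPM. D30-3 stood apart from the other libraries, with 479 counted entries of other species against 180 to 269 elsewhere, and the calls that rest on it are also given without it. The libraries were split here into 2 read classes by their share of high-quality reads in the study's library table. The upper read class held CK-1, D10-2, D10-3, all D20 libraries and D30-3. The lower read class held CK-2, CK-3, D10-1, D30-1 and D30-2. The paper itself names no such classes and reports no abnormal samples. D20 has no library in the lower read class, so a difference that involves D20 is confounded in part with the read class.

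A mature miRNA is cut from a hairpin by the RNases Drosha and Dicer and is loaded on an Argonaute protein, which it guides to messenger RNAs. Most target recognition in animals runs through the seed, the stretch from base 2 to base 8. Molecules of one hairpin arm that begin or end at other positions are called isomiRs. They arise from imprecise cutting, from trimming or from bases added after cutting. A change at the 3' end leaves the seed as it was, whereas a change at the 5' end moves it and so can alter the set of targets. In the honeybee brain miRNAs have been studied for behaviour and memory.

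The 3' extended variants with the most counts, the highest share or a changed ratio are shown first, since they carry most of the counts and keep the seed of the parent. Bases 2 to 8 and the bases added at the 3' end are in capitals, and removing the added bases gives the parent.
miR-71-x: tGAAAGACatgggtagtgaGAT
miR-1000-x: aTATTGTCttgtcacagcagtACT
miR-263-x: cTTGGCACtggaagaattcacAGA
miR-34-x: tGGCAGTGttgttagctggttgTGA
miR-283-x: aAATATCAgctggtaattctGA
miR-29-y: tAGCACCAtttgaaatcagtAA
miR-981-y: tTCGTTGTcaacgaaacctgcaCT
miR-14-y: tCAGTCTTtttctctctcctaTA
miR-100-x: aACCCGTAgatccgaacttgtgAA
miR-125-x: cCCCTGAGaccctaacttgtgaAA
miR-10-x: aCCCTGTAgatccgaatttgtTA
miR-971-y: tTGGTGTTctaccttacagtgagTT
The added run was GAT in miR-71-x, AGA in miR-263-x, ACT in miR-1000-x and TGA in miR-34-x, and AA in miR-29-y, miR-100-x and miR-125-x. MiR-216-x is listed with the same sequence as miR-283-x.

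The variants with a shifted 5' end are shown with their parents, because the extra base moves the seed (bases 2 to 8, in capitals) by 1 position.
miR-2796-y: cGTAGGCCggcggaaactacttgc
ame-miR-2796-3p: gTAGGCCGgcggaaactacttgc
miR-276-y: cTAGGAACttcataccgtgctct
ame-miR-276-3p: tAGGAACTtcataccgtgctct
miR-13-y: cTATCACAgccatttttgacgatt
ame-miR-13b-3p: tATCACAGccatttttgacgatt
miR-92-y: cATTGCACtcgtcccggcctGC
ame-miR-92c-3p: aTTGCACTcgtcccggcct
MiR-92-y was extended at both ends, and its added 3' bases are in capitals too. Its seed, ATTGCAC, is that of another honeybee miRNA, ame-miR-92b-3p, whereas the seed of its parent, TTGCACT, is shared with ame-miR-92a-3p. The parent of miR-13-y has the seed ATCACAG, which 4 other listed honeybee miRNAs have (ame-miR-11-3p, ame-miR-2-3p, ame-miR-13a-3p and ame-miR-2944-3p), and none of the 180 honeybee miRNAs has the seed of miR-13-y. Of the 11 variants with a moved seed, only miR-92-y has the seed of a listed honeybee miRNA. Among the variants themselves, miR-11-y and miR-2-y share the seed ATCACAG, and miR-31-x and miR-72-x share GGCAAGA.

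Over the 36 variants, 25 were longer at the 3' end only, 9 at the 5' end only and 2, miR-92-y and miR-72-x, at both. At the 3' end, 20 of the 25 had 2 added bases and 5 had 3. None had 1 added base at the 3' end alone, an extension found in 6 of the 68 counted entries that meet the sequence rule, all below the count minimum. Each 5' extension was a single base, C in 10 of 11 and A in miR-72-x. The seed of the parent was thus kept in 25 of 36. Of the 59 bases added at 3' ends, 26 were A (44.1%), 17 were T (28.8%), 9 were G and 7 were C. The last base was A in 15 and T in 10 of the 27 variants with an added 3' end, C in the remaining 2, and G in 0. The most frequent runs were AA (6 variants) and CT (4 variants). Of the 9 variants extended at the 5' end only, 8 came from the 3p arm, and of the 25 extended at the 3' end only, 14 came from the 5p arm. Whether the added bases are those of the hairpin was not tested, since hairpin sequences were not used here.

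Hairpin genes of the RefSeq table for Amel_HAv3.1, the assembly the authors mapped to, were matched by name for 32 of the 34 parents. Mir71 (linkage group 1, 140348 to 140447) and Mir13b (linkage group 1, 139337 to 139415) lie inside 1 protein-coding gene, LOC726544. Mir277 (linkage group 5, 7059402 to 7059485) and Mir34 (linkage group 5, 7064058 to 7064157) also share a protein-coding gene, LOC102655904. Mir100 (linkage group 8, 7661064 to 7661163) and Mir125 (linkage group 8, 7659889 to 7659995) are neighbours outside any listed gene, as in Drosophila, where both are transcribed together with let-7. Mir10, whose relatives sit in the Hox clusters of many animals, is on linkage group 16 (4243330 to 4243429) inside LOC107965722. Mir263b is on linkage group 4 (7000817 to 7000907) inside LOC100578609, Mir981 on linkage group 2 (11209287 to 11209380) inside LOC410870, and Mir92c on linkage group 15 (7596195 to 7596276) outside any listed gene. The table gives gene spans, so exons and introns cannot be told apart in it.

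The variant share, the counts of a variant divided by the counts of the variant and its parent together, ranged widely among the 36. Summed over the 12 libraries it was 0.109% in miR-72-x and 74.2% in miR-71-x, with a median of 1.70%. It was above 50% in miR-71-x only, above 10% in 5 variants, between 1% and 10% in 16 and below 1% in 15. The 25 variants extended at the 3' end only had a median share of 2.52% (0.111% to 74.2%), and the 9 extended at the 5' end only had a median of 0.441% (0.164% to 1.82%). MiR-263-x had 367650 counts, followed by miR-71-x (228632), miR-981-y (172446), miR-29-y (98064), miR-2796-y (92455) and miR-276-y (76807). MiR-2796-y and miR-276-y were small beside their parents, which had 32307279 and 35855365 counts, and made up 0.285% and 0.214%. The parents were themselves abundant, with a median of 328105 counts against 677 for the other 141 counted honeybee miRNAs, and 12 of the 20 most abundant honeybee miRNAs were parents. The count minimum of the variants favours abundant parents, so this is a description as well. The other 141 include parents of longer entries that were set aside or below the minimum. All 36 variants were counted in all 12 libraries, except that miR-989-y had 0 of 2130 counts in D20-3, which allows a share of up to 0.141%.

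**Figure D1:**
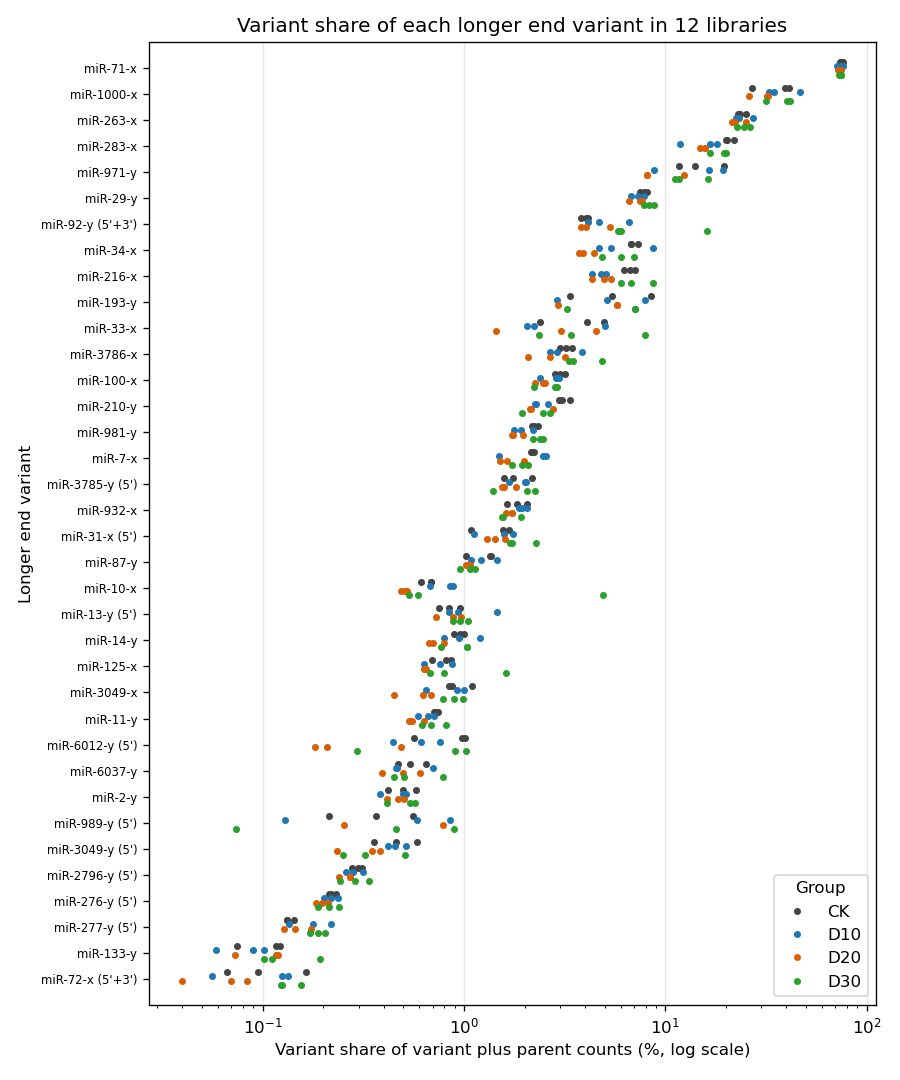
Variant share (%, log scale) of each of the 36 longer end variants in each library, coloured by group and sorted by the share over all libraries, with extensions at the 5' end marked. MiR-71-x stays above 71% in every library, most variants lie between 0.1% and 10%, and miR-10-x and miR-92-y each have 1 D30 library far to the right; miR-989-y in D20-3, at 0, is not drawn.

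MiR-71, a regulator of lifespan in Caenorhabditis elegans, was the parent that its own variant outnumbered in listed counts. The share of miR-71-x was 76.0%, 74.0% and 75.4% in CK, 76.5%, 71.4% and 74.4% in D10, 74.5%, 73.4% and 72.3% in D20 and 74.7%, 74.2% and 72.8% in D30. Over all libraries it had 2.87 times the counts of the annotated form, and the CV of its share, 2.02%, was the lowest of the 36. A share this high leaves little room above it, which keeps its CV small. The groups overlapped. In CK-1 the 95% Wilson interval was 75.4% to 76.6%, which covers counting error only.

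MiR-263, which protects sensory bristle progenitors in Drosophila, had the variant with the most counts. The share of miR-263-x was 25.1%, 23.5% and 22.99% in CK, 27.3%, 23.3% and 22.5% in D10, 25.1%, 21.3% and 22.3% in D20 and 26.2%, 24.7% and 22.6% in D30. The range within each group was as wide as the distance between group means, 22.9% ± 1.96 (SD, n = 3) in D20 and 24.5% ± 1.83 in D30. Its level was 2458 ± 145 TPM in CK and 1938 ± 395 TPM in D20, the highest and lowest group means. The log2 fold change in level was -0.26 (SE 0.15, unadjusted p = 0.104, edgeR quasi-likelihood) and was not called. That of the parent was -0.19 (SE 0.11).

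MiR-1000, a miRNA of neurons that restrains glutamate loading of synaptic vesicles in Drosophila, was rare in these libraries, its parent being at 11.96 to 40.9 TPM. The share of miR-1000-x was 41.2%, 27.03% and 39.4% in CK, 46.8%, 34.5% and 32.6% in D10, 32.1%, 26.1% and 32.3% in D20 and 41.4%, 40.4% and 31.6% in D30. Counting error was larger here, and in CK-1, with 77 of 187 counts, the 95% Wilson interval was 34.4% to 48.3%. MiR-971-y, another rare variant with 361 counts, had shares of 14.1%, 11.7% and 19.6% in CK, 19.3%, 16.5% and 8.84% in D10, 12.3%, 8.14% and 8.14% in D20 and 11.2%, 16.4% and 11.7% in D30. Its lowest values were those of D20-2 and D20-3, and D10-3 was close to them.

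MiR-283-x and miR-216-x are listed with 1 identical sequence and 1 parent but with different counts, 28356 and 8389 in all. The ratio of their counts was between 2.64 (D30-1) and 4.36 (D10-1), so the count of an entry is not the count of the printed sequence alone. How the authors divided reads between such entries is not given in the sources used here. The counts of the other variants may likewise include tags other than the printed sequence, so each share is one of listed counts. The shares of miR-283-x and miR-216-x each leave out the counts of the other, so neither is the share of that sequence. The share of miR-283-x was 20.4%, 21.99% and 19.99% in CK, 18.05%, 11.8% and 16.8% in D10, 15.7%, 14.96% and 15.7% in D20 and 20.1%, 19.5% and 16.7% in D30. The share of miR-216-x was 6.25%, 7.07% and 6.66% in CK, 4.81%, 4.34% and 5.09% in D10, 5.39%, 4.34% and 4.95% in D20 and 8.73%, 6.01% and 6.75% in D30. For both entries every D10 and every D20 library was below every CK library.

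The other abundant 3' variants had shares of a few percent. That of miR-29-y was 8.13%, 7.47% and 7.86% in CK, 7.88%, 6.80% and 7.34% in D10, 7.66%, 7.45% and 6.60% in D20 and 7.80%, 8.28% and 8.81% in D30. MiR-100 is part of the ecdysone-responsive let-7 cluster in Drosophila. MiR-100-x was at 2.84%, 3.18% and 3.01% in CK, 2.96%, 2.86% and 2.38% in D10, 2.48%, 2.54% and 2.26% in D20 and 2.91%, 2.82% and 2.22% in D30. MiR-14 limits cell death and acts in insulin-producing cells of the Drosophila brain. The share of miR-14-y was 0.952%, 0.895% and 1.01% in CK, 1.20%, 0.946% and 0.793% in D10, 0.793%, 0.706% and 0.672% in D20 and 1.03%, 1.03% and 0.769% in D30. For miR-100-x and miR-14-y the D20 libraries were all below the CK libraries, as in 20 of the 52 pairs. For miR-29-y the groups CK and D20 overlapped.

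The abundant 5' variants had low shares. MiR-276, needed for memory formation in Drosophila, had a variant share of 0.215%, 0.219% and 0.233% in CK, 0.237%, 0.220% and 0.203% in D10, 0.210%, 0.196% and 0.185% in D20 and 0.239%, 0.213% and 0.188% in D30. That of miR-2796-y was 0.279%, 0.299% and 0.313% in CK, 0.317%, 0.260% and 0.282% in D10, 0.272%, 0.271% and 0.241% in D20 and 0.338%, 0.288% and 0.242% in D30. In both, D20-3 was the lowest library, with D30-3 next to it, and every D20 library was below every CK library, as in 20 of the 52 pairs.

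The median share was higher among variants of short annotated parents. The 14 variants of parents of 19 to 21 nt had a median share of 5.67% (0.555% to 74.2%) and the 22 variants of parents of 22 or 23 nt had a median of 0.838% (0.109% to 13.1%). All but 1 variant extended at the 5' end alone or at both ends came from the longer parents. Among the variants extended at the 3' end only, the medians were 5.59% for 13 variants of the shorter parents and 1.90% for 12 of the longer ones. The parent of miR-71-x had 19 nt, those of miR-283-x and miR-29-y 20 nt, and those of miR-263-x and miR-1000-x 21 nt. MiR-971-y went the other way, with a share of 13.1% and a parent of 23 nt. These values are a description, since the minimum count and the annotated ends both enter them.

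**Figure D2:**
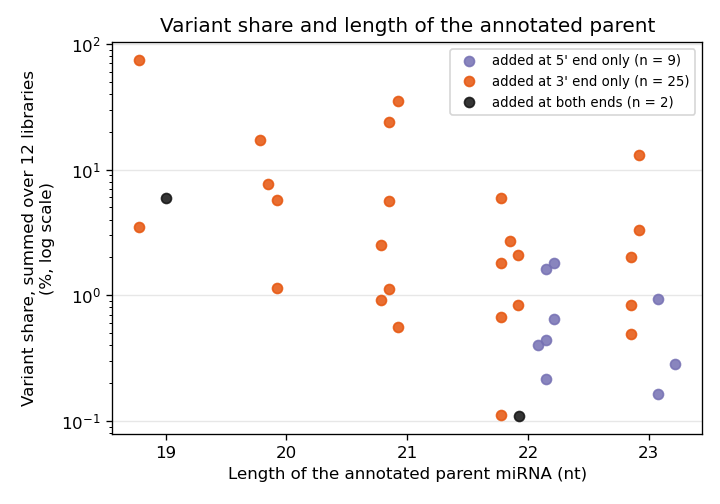
Variant share summed over the 12 libraries (%, log scale) against the length of the annotated parent (nt), with points set apart sideways, for the 25 variants with bases added at the 3' end, the 9 at the 5' end and the 2 at both. The 3 highest shares (74.2%, 35.1% and 23.96%) belong to parents of 19 and 21 nt, and the 9 variants with an added 5' base alone, all of parents of 22 or 23 nt, lie between 0.164% and 1.82%.

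By group, the variants together made up 1.36% ± 0.0405 (SD, n = 3) of variant and parent counts in CK, 1.30% ± 0.136 in D10 and 1.20% ± 0.110 in D20, and in D30 they were at 1.36% ± 0.0346. The lowest library was D20-3 (1.098%) and the highest D10-1 (1.46%). The 25 variants with an added 3' end had 3.997% ± 0.201 in CK, 3.94% ± 0.491 in D10 and 3.54% ± 0.203 in D20, and D30 had 3.91% ± 0.135. The 9 variants with an added 5' base had 0.276% ± 0.0166, 0.271% ± 0.0208, 0.245% ± 0.0152 and 0.273% ± 0.0390. D20 was thus lowest for both kinds of end, with SDs that overlap those of D10. The sums weight each miRNA by its counts, so they also move with the levels of a few abundant ones, such as ame-miR-276-3p and ame-miR-2796-3p. No test was made on these sums, because the variants were chosen with results known.

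The lower share in D20 was spread over the variants and was not particular to them. From CK to D20 the median log2 change of the ratio was -0.30 in the 36 variants and -0.31 over all 52 tested pairs. The mean share was lowest in D20 for 29 of 36 variants and highest in D20 for 0, whereas it was highest in D30 for 16, in CK for 13 and in D10 for 7. Of the 16 other tested pairs, 9 were lowest in D20. D20-3 was the lowest of the 12 libraries for 13 variants, and no D20 library was the highest for any. Taking each variant's log2 ratio to its parent as a deviation from its mean over the 12 libraries, the median deviation over the 36 variants was 0.09, 0.05 and 0.17 in CK, 0.15, 0.04 and -0.16 in D10, -0.10, -0.24 and -0.24 in D20 and 0.19, 0.08 and -0.10 in D30. It was between 0.05 and 0.19 in the 5 libraries of the lower read class and between -0.24 and 0.09 in the 7 of the upper read class. Within the latter 7 alone, the mean share was lowest in D20 for 15 of 36 variants, with CK and D30 represented by 1 library each, and the D20 mean was below CK-1 in 27 of 36, by a median of -0.22 on the log2 scale. In those libraries D10 was also below CK-1 in 21 of 36 and D30-3 in 22 of 36. Among the other libraries, D30-1 and D30-2 differed from CK-2 and CK-3 by a median of 0.02. The comparisons within a read class were made for the 36 variants only. The part of the read class in the low D20 values cannot be told apart from that of the sampling day in full.

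**Figure D3:**
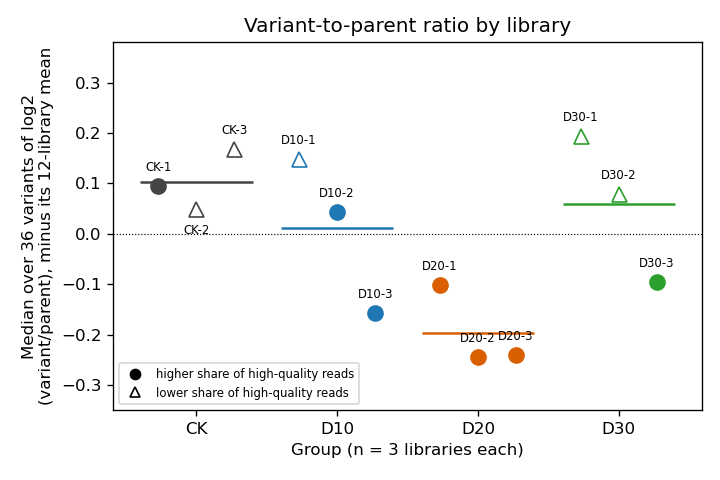
Median over the 36 variants of the log2 variant-to-parent ratio minus its mean over the 12 libraries, for each library by group, with the mean of the 3 libraries as a line; filled circles are libraries of the upper read class and open triangles those of the lower. The 3 D20 libraries are at -0.10, -0.24 and -0.24, D10-3 and D30-3 are also below 0, and all triangles are above 0.

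In RNA of whole brains, fewer cells of a type and less RNA per cell cannot be told apart. The level of the variants was compared between groups by edgeR's quasi-likelihood test over 787 entries with at least 10 counts, called at an adjusted p under 0.05 and an absolute log2 fold change above 1. None of the 36 variants was called in D10 against CK (background 0% of all entries called), D20 against CK (0%), D30 against CK (0%), D20 against D10 (0%), D30 against D10 (0%) or D30 against D20 (0%). The smallest adjusted p of a variant was 0.413, in D30 against D10. At an unadjusted p under 0.05 there were 2 variants in D10 against CK (6.1% of all entries), 4 in D20 against CK, all lower (4.07%), 2 in D30 against CK (6.86%), 2 in D20 against D10 (6.1%), 2 in D30 against D10 (11.2%) and 9 in D30 against D20, all higher (7.62%). Without D30-3 the last number was 4 (5.34% of all entries), and miR-10-x, miR-92-y and miR-125-x, which were among the 9, had a log2 fold change of 0.01, 0.34 and 0.48 (unadjusted p = 0.959, 0.204 and 0.123, edgeR quasi-likelihood). The median log2 fold change of the variants was -0.06, -0.18, 0.08, -0.14, 0.12 and 0.21 in these comparisons in order, and that over all entries was 0, 0, 0.25, 0, 0.27 and 0.25. By other tools, edgeR's classic exact test on the 2 groups called 1 variant, miR-10-x, in D20 against D10, and DESeq2 called 0 in every comparison. DESeq2 gave an adjusted p under 0.05 at a smaller fold to 1 variant, miR-283-x, in D10 against CK (0.37, adjusted p = 0.000710) and in D20 against D10 (-0.45, adjusted p = 4.19e-05).

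The ratio of a variant to its parent was tested by the same method with the parent's count in each library as an offset, over all 52 pairs with at least 10 counts, the entries set aside by the rule included. Unlike a level, a ratio was called at an adjusted p under 0.05 with no fold threshold. In D10 against CK, 0 of 36 variants were called (background 0% of pairs). MiR-283-x had the smallest p, with a log2 change of -0.51 (SE 0.17, adjusted p = 0.269, edgeR quasi-likelihood), and miR-216-x came next with -0.52 (SE 0.20, adjusted p = 0.340). Without D30-3, which enters the fit through the shared spread, miR-283-x was called (adjusted p = 0.0160, 1.96% of pairs called), and with the read class as a covariate as well it was not (-0.44, adjusted p = 0.0604). The log2 difference in level of ame-miR-283-5p itself between D10 and CK was 0.92 (SE 0.21, adjusted p = 0.512), and miR-283-x was at 158 ± 4.53 TPM in CK and 197 ± 10.2 TPM in D10. The share was thus lower in D10 although the TPM of the variant was higher there. Over the 36 variants the median log2 change was -0.04, against -0.06 over all pairs.

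In D20 against CK, 1 of 36 variants was called (background 1.92% of pairs), miR-34-x. MiR-34 is known from Drosophila for its part in brain ageing. Its variant had a share of 6.75%, 6.78% and 7.35% in CK, 8.65%, 5.36% and 4.68% in D10, 4.45%, 3.92% and 3.75% in D20 and 6.97%, 6.03% and 4.86% in D30. All D20 libraries were below all others, and after them came D10-3, D30-3 and D10-2, which are also of the upper read class. The ratio fell by 0.83 on the log2 scale from CK to D20 (SE 0.20, adjusted p = 0.0157, edgeR quasi-likelihood), and the parent ame-miR-34-5p changed by 0.18 in level (SE 0.15, adjusted p = 1). The call was lost without CK-1, CK-2, CK-3, D20-2 or D20-3, with a change of -0.85 to -0.78 and an adjusted p of 0.0520 to 0.140, with the read class as a covariate, where the change was -0.54 (adjusted p = 0.107), and with limma on the log ratio (-0.83, adjusted p = 0.160). Within the upper read class, the D20 mean was -0.79 from CK-1 on the log2 scale.

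Most other variants moved the same way in D20, mostly by smaller amounts. The changes of miR-6012-y (-1.58) and miR-72-x (-0.834), variants of 157 and 271 counts, were as large or larger, and neither was called. The log2 change was below 0 for 32 of 36, with a median of -0.30 against -0.31 over all pairs, and 9 variants had an unadjusted p under 0.05, all lower (21.2% of all pairs had such a p). In 15 of 36 variants each D20 library had a lower share than each CK library (38.5% of all pairs did), and the reverse was found in 0. Of the 16 tested pairs that are not among the 36, 5 had each D20 library below each CK library, and their median log2 change was -0.89. Among the larger changes were those of miR-3049-x, -0.67 (SE 0.26, adjusted p = 0.137), and miR-283-x, -0.52 (SE 0.17, adjusted p = 0.103). MiR-981-y changed by -0.31 (SE 0.10, adjusted p = 0.103). Without D30-3 the number called was 5 (9.8% of pairs), with miR-14-y, miR-283-x, miR-3049-x and miR-981-y beside miR-34-x, and with the read class as a covariate it was 0, also without D30-3 (smallest adjusted p 0.0550).

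In D30 against CK, 1 of 36 variants was called (background 1.92% of pairs), miR-92-y, the variant with the seed of ame-miR-92b-3p. Its share was 4.14%, 4.02% and 3.81% in CK, 4.66%, 6.59% and 4.11% in D10, 3.81%, 4.03% and 5.32% in D20 and 5.83%, 6.03% and 16.2% in D30. All D30 libraries were above all CK libraries, as in 3 of the 52 pairs. D30-3 was far above the rest, with 539 counts against 88 to 180 elsewhere. The ratio rose by 1.36 on the log2 scale (SE 0.34, adjusted p = 0.0219, edgeR quasi-likelihood). Without D30-3 the change was 0.60 (adjusted p = 0.857). The call was also lost without CK-1, CK-2, CK-3, D10-2 or D10-3, with a change of 1.32 to 1.38 and an adjusted p of 0.0584 to 0.118. The parent ame-miR-92c-3p changed by -0.16 (SE 0.18, adjusted p = 0.768) in level. Over the 36 variants the median log2 change of the ratio was 0.04, with 16 below 0.

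MiR-10-x had the next smallest p in D30 against CK, and its value there was that of a single library. Its share was 0.613%, 0.690% and 0.686% in CK, 0.884%, 0.848% and 0.680% in D10, 0.489%, 0.523% and 0.511% in D20 and 0.590%, 0.533% and 4.92% in D30. D30-3 held 1454 counts, the other libraries 70 to 254. The log2 change was 1.66 (SE 0.49, adjusted p = 0.0544) and -0.25 without D30-3 (adjusted p = 0.857). Apart from D30-3, the D20 and D30 libraries were below all others in this variant.

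**Figure D4:**
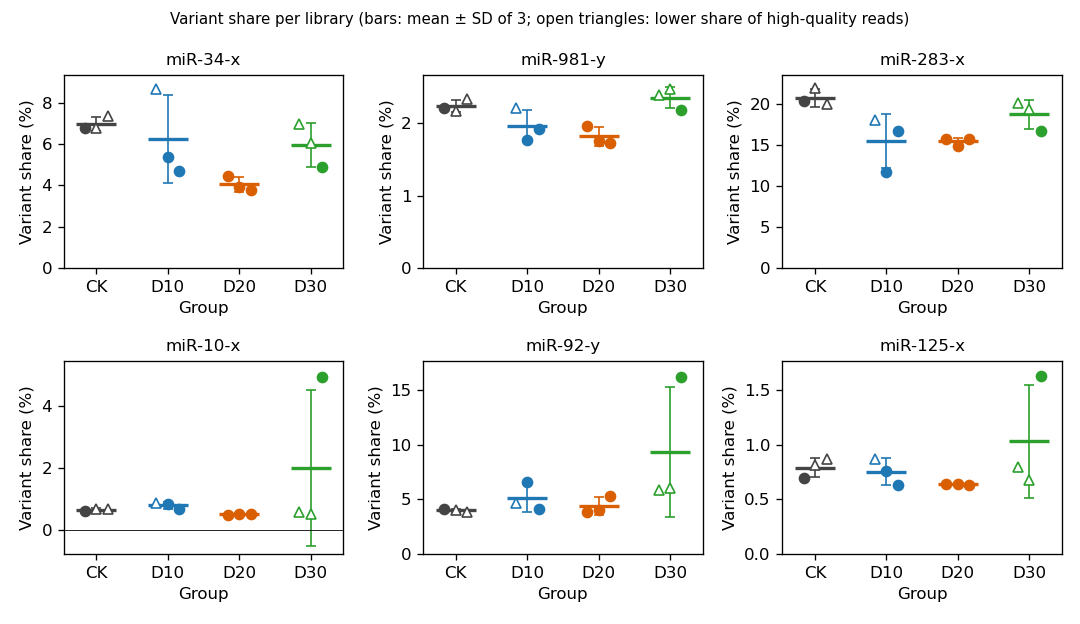
Variant share (%) of 6 variants in each library by group, with the mean and SD of 3 libraries; open triangles are libraries of the lower read class. In miR-34-x and miR-283-x the D20 libraries lie below the CK libraries, and in miR-10-x, miR-92-y and miR-125-x a single D30 library (4.92%, 16.2% and 1.63%) sets the D30 mean.

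In D30 against D20, 4 of 36 variants were called (background 7.69% of pairs), all higher in D30, and no other pair was called. Of these, 3 rested on D30-3. The ratio of miR-10-x rose by 2.05 on the log2 scale (SE 0.50, adjusted p = 0.0181, edgeR quasi-likelihood), that of miR-92-y by 1.22 (SE 0.34, adjusted p = 0.0208) and that of miR-125-x by 0.70 (SE 0.22, adjusted p = 0.0488). Without D30-3 these changes were 0.14, 0.47 and 0.20, with an adjusted p of 0.707, 0.220 and 0.387. MiR-125, which is expressed with miR-100 and let-7 in Drosophila development, had a variant share of 0.694%, 0.811% and 0.867% in CK, 0.871%, 0.759% and 0.631% in D10, 0.641%, 0.645% and 0.634% in D20 and 0.792%, 0.680% and 1.63% in D30. The share of D30-3 was 1.87 times the next highest in miR-125-x, 2.46 times in miR-92-y and 5.57 times in miR-10-x. The call of miR-125-x was also lost when any 1 of CK-1, CK-2, D10-2, D10-3, D20-1, D20-2 or D20-3 was left out (adjusted p 0.0612 to 0.157), and that of miR-92-y without D20-1 (0.0821) or D20-2 (0.101).

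The fourth, miR-981-y, did not rest on D30-3. Its share was 2.22%, 2.18% and 2.34% in CK, 2.21%, 1.78% and 1.92% in D10, 1.97%, 1.76% and 1.74% in D20 and 2.40%, 2.48% and 2.19% in D30. Each D30 library was above each D20 library. The ratio rose by 0.38 on the log2 scale (SE 0.10, adjusted p = 0.0208, edgeR quasi-likelihood), and by 0.43 without D30-3 (adjusted p = 0.00576). The call was lost without D20-2 (0.36, adjusted p = 0.101), D20-3 (0.35, adjusted p = 0.135) or D30-2 (0.34, adjusted p = 0.0662), with the read class as a covariate (0.28, adjusted p = 0.103) and with limma on the log ratio (0.38, adjusted p = 0.246). D30-1 and D30-2, in which the share was highest, are of the lower read class.

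Over the 36 variants the median log2 change from D20 to D30 was 0.33, against 0.36 over all pairs, and 34 were above 0. In 12 of 36 each D30 library had a higher share than each D20 library (26.9% of all pairs did). Without D30-3, 9 variants were called (17.6% of pairs): miR-34-x (0.72, adjusted p = 0.000578), miR-981-y, miR-14-y, miR-216-x, miR-283-x, miR-3049-x, miR-3786-x, miR-1000-x and miR-6012-y. With the read class as a covariate as well, 0 were called, and the change of miR-34-x was 0.27. In D20 against D10, 0 of 36 were called (background 0% of pairs), with 33 below 0 and a median of -0.22 against -0.23 over all pairs. Without D30-3 the number was 3 (7.84% of pairs), miR-10-x, miR-14-y and miR-34-x, and with the read class as a covariate as well it was 0 (smallest adjusted p 0.0857). In D30 against D10, 0 of 36 were called (background 0% of pairs), and miR-216-x was called without D30-3 (0.68, adjusted p = 0.0163, 1.96% of pairs called) but not with the read class as a covariate as well (0.62, adjusted p = 0.180).

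**Figure D5:**
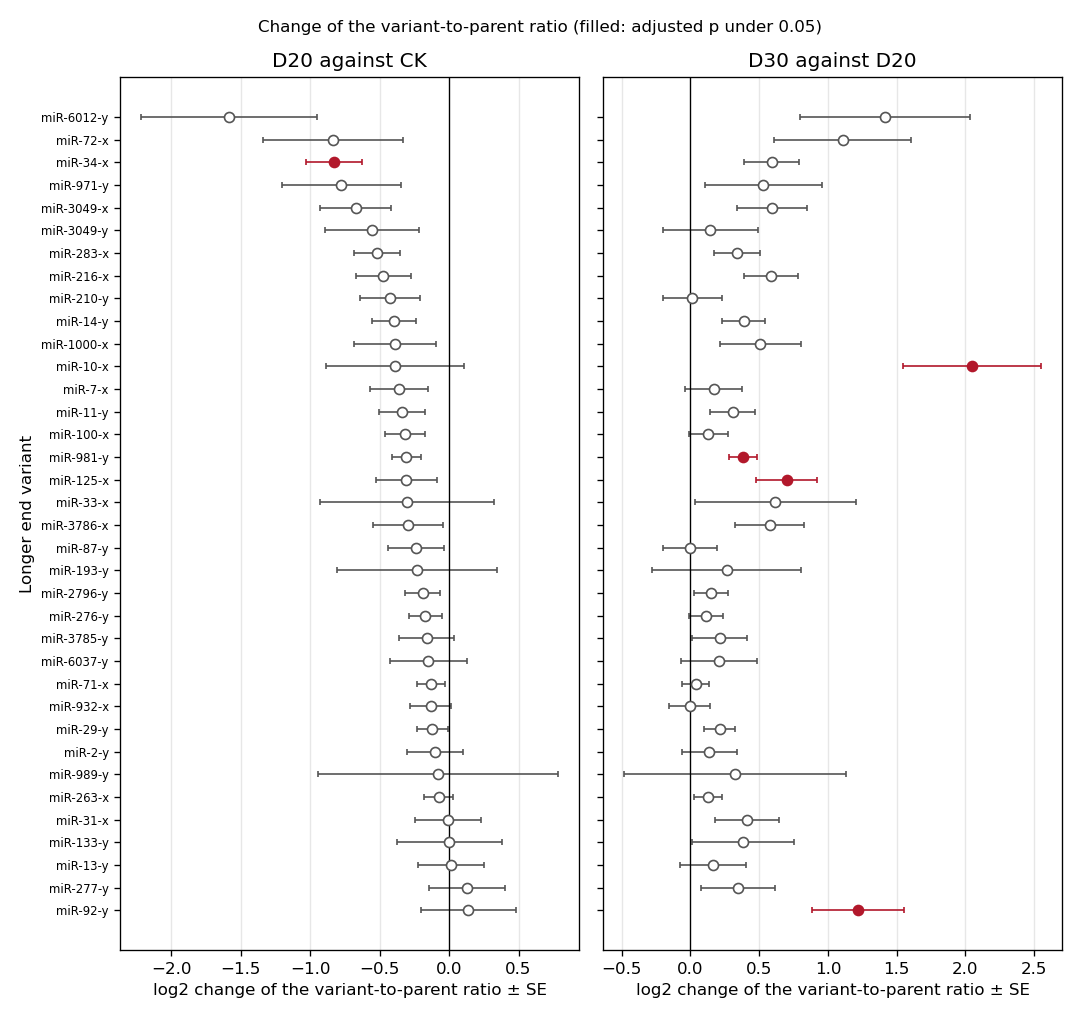
Log2 change of the variant-to-parent ratio with its standard error for the 36 variants in D20 against CK and D30 against D20, from edgeR's quasi-likelihood fit over all 12 libraries; filled points have an adjusted p under 0.05. In D20 against CK, 32 points lie below 0 and miR-34-x is filled, and in D30 against D20, 34 lie above 0 and miR-10-x, miR-981-y, miR-92-y and miR-125-x are filled, of which miR-10-x, miR-92-y and miR-125-x rest on D30-3.

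The rarer variants varied more than the abundant ones. The CV of the share over the 12 libraries was 2.02% in miR-71-x, where the high share keeps it small, 7.41% in miR-263-x, 7.96% in miR-29-y and 8.39% in miR-276-y. It was 49.8% in miR-33-x (155 counts) and 71.6% in miR-989-y (124 counts), and 125% in miR-10-x through D30-3. MiR-6012-y had the largest fitted drop in D20 against CK, -1.58 (SE 0.63, adjusted p = 0.137), from shares of 0.983%, 0.566% and 1.01% in CK to 0.486%, 0.209% and 0.183% in D20. MiR-6012-y had few counts, 14, 12 and 22 in CK and 7, 5 and 3 in D20. Its D30 libraries were at 0.907%, 1.03% and 0.294%, with D30-3 inside the D20 range and the others above it. MiR-7-x, whose parent acts in photoreceptor development of Drosophila, had 2.22%, 2.18% and 2.16% in CK, 2.47%, 2.56% and 1.5004% in D10, 1.99%, 1.51% and 1.63% in D20 and 1.94%, 2.08% and 1.72% in D30. Its D10 libraries lay on both sides of all others. MiR-932-x, whose parent was linked to memory and an actin gene in the honeybee, was within 1.55% to 2.06% in all libraries. The muscle miRNA miR-133 had 1 of the lowest variant shares, 0.0587% to 0.193%, and D30-3 was its highest library.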

How the data were processed

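Small RNA of 12 brain libraries was counted by the authors. The authors filtered the reads by quality and insert length, dropped tags seen fewer than 2 times and those of other small RNAs, and assigned tags to miRNAs with Bowtie and miRBase. The deposited counts are reads per listed miRNA, without normalization. The deposited TPM values divide them by a library total above the sum of the listed counts, and write 0 as 0.01. Sequences are those of the deposited lists, with T for U. The members and lists were chosen with earlier results of these data known. Samples were grouped by their titles.

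Levels were tested on the counts with edgeR 4.0.16 in R 4.3.3 (TMM, quasi-likelihood F test, 1 fit of the 12 libraries, 787 entries with at least 10 counts). Ratios were tested in the same way with the log of the parent's count plus 0.5 as offset (52 pairs), and called at an adjusted p under 0.05 (Benjamini-Hochberg within a comparison). Standard errors were obtained from the log2 change and F. Both fits were tested on simulated data. DESeq2 1.42.0, limma 3.58.1, other filters, offsets and normalizations, leaving out each library, the read class and a replicate block were alternatives. Shares used Python 3.11.15 and pandas 2.3.3. Values in every library are given for the 8 variants with most counts, the 5 with the highest share, those called, and the 2 with the smallest p in each comparison of the ratio with CK; other variants named were chosen after their values were seen. In the libraries, 3 counts correspond to 0.188 to 0.355 CPM; such floors and the intervals cover counting error alone. Replicate libraries all differed by more than sampling noise. Neither labels nor methods say which colony a library came from, so p-values measure the spread between these samples.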

Additional observations from a re-analysis of the deposited data

Results flagged for a closer look

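For 4 variants the variant-to-parent ratio differed between D30 and D20 by edgeR's quasi-likelihood test. These are the calls in D30 against D20 given above and not a separate test, since CK cancels out of a difference between changes from CK. The difference was 2.05 on the log2 scale for miR-10-x, 1.22 for miR-92-y, 0.70 for miR-125-x and 0.38 for miR-981-y. Without D30-3 it was 0.14, 0.47, 0.20 and 0.43. With the read class as a covariate and D30-3 left out, 0 variants were called in D30 against D20.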

How the results depend on the processing

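For the ratio of variant to parent, the number of variants called in D20 against CK (1) was 0 with limma, 2 with the offset of the whole family, 2 with the replicate block, 0 with the read class as covariate and 0 with that covariate and D30-3 left out. In D30 against CK (1) it was 0 with limma, at 100 counts, with the family offset and with the replicate block, 2 with the read class, and 0 with the read class and D30-3 left out. In D30 against D10 (0) the read class gave 2, miR-10-x and miR-92-y, and 0 with D30-3 left out as well (adjusted p = 0.456 and 0.980). In D30 against D20 (4) it was 0 with limma, 2 with the family offset, 1 with the replicate block, and 0 with the read class and D30-3 left out. For levels, the classic exact test called 1 in D20 against D10, and the read class called 1, miR-92-y, in D30 against D20, which had 0.60 (adjusted p = 1) with D30-3 left out as well. Leaving out 1 library at a time gave 0 to 1 calls of level in D20 against D10, and calls of the ratio of 0 to 1 in D10 against CK, 0 to 5 in D20 against CK, 0 to 3 in D30 against CK, 0 to 3 in D20 against D10, 0 to 4 in D30 against D10 and 1 to 9 in D30 against D20. The ratio of miR-10-x in D30 against CK was then -0.25 to 2.12. With the read class and D30-3 left out it was -0.30, and in D30 against D20 that of miR-10-x was -0.047 and that of miR-125-x -0.10. The pooled share of CK, D10, D20 and D30 was 1.58%, 1.61%, 1.48% and 1.71% as a median over variants, and 0.975%, 0.948%, 0.892% and 0.995% without miR-263-x. The count of variants lowest in D20 was 15 in the libraries of the higher read class alone. The fits with read class and D30-3 left out, and the higher class alone, were chosen after seeing the data. Apart from these, the cause of each change was not tested. Same-numbered libraries of different groups did not deviate together (median correlation -0.07 over 18 pairs for ratios, above 0.1 in 5), so the block rests on a shared number only. Depth limits variants of few counts.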

Other observations

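Of the 9 entries set aside, 5 are longer end variants as well, each with 2 bases added at the 3' end. Over the 12 libraries miR-1-y made up 3.99% of its own and its parent's counts, miR-375-y 0.960%, miR-9-x 0.420%, miR-750-y 0.295% and miR-315-x 0.178%. Their mean share was lowest in D20 for 4 of the 5. The share of miR-375-y was lowest in CK, at 0.621% ± 0.135 (SD, n = 3), and 1.09% ± 0.268 in D10. Below the count minimum, miR-3782-x made up 11.4% of the counts of itself and ame-miR-3782-5p (56 and 437 counts), and miR-3718-x 8.39%.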
